A study of Mus musculus with 12 samples.

Results

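The comparison described here asks whether lipid load goes with the same change of chromatin accessibility in both macrophage lineages of a mouse brain tumour, or with a different one in each. It is the lineage-by-lipid interaction, (LL-MG − MG) − (LL-MDM − MDM), and it uses all 12 of the 12 ATAC-seq libraries of the series. The groups, each of 3 libraries, are lipid-laden microglia (LL-MG), microglia without lipid load (MG), lipid-laden monocyte-derived macrophages (LL-MDM) and monocyte-derived macrophages without lipid load (MDM). The labels give the genotype of all 4 groups as Ink4a/ArfKO, PDGFB, so that tumours without the Ink4a/Arf locus and with PDGFB are common to laden and non-laden cells. They give the tissue as brain tumour and say that nuclei of cells sorted by flow cytometry were used, but the sources used here do not give the gate, the age of the mice or the number of cells. The library names, which are the columns of the count table, set the groups. For 8 of the 12 samples the sample title names another group than the library name, and with groups by title 0 regions and 0 genes had an edgeR adjusted p under 0.05 (429 regions and 43 genes at an unadjusted p under 0.05), so every result below is a result of the groups by library name.

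Microglia are the resident macrophages of the brain, seeded before birth, and they hold a set of open sites around genes such as Sall1 that macrophages from the blood lack. Monocyte-derived macrophages enter a tumour from the blood and can present antigen on MHC class II. Both lineages take up lipid and myelin debris, store it in droplets and export cholesterol through transporters that the liver X receptors control. In ATAC-seq the Tn5 transposase inserts adapters into open DNA, so that the count in a region measures how accessible it was.

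Library totals over 117835 regions of the mm10 genome lay between 2150072 and 2764146 counts in LL-MG, between 2753453 and 6872724 in MG, between 1162969 and 7390521 in LL-MDM and between 6341183 and 18938222 in MDM. Levels are given in CPM, counts divided by the scaled total of their library. All pairs of libraries of a group differed by more than sampling noise, with a chi-square per degree of freedom of 1.07 to 1.09 in LL-MG, 2.05 to 4.10 in MG, 1.07 to 1.13 in LL-MDM and 1.595 to 1.815 in MDM. The MG libraries were thus the least alike, and the summed accessibility of 18 microglia genes was 1632 CPM in MG 1, against 1006 CPM in MG 2 and 1276 CPM in MG 3. The microglia list summed to 1593 to 1774 CPM in LL-MG and 1006 to 1632 in MG, and to 1091 to 1171 CPM in LL-MDM and 996.5 to 1028 in MDM. The list of 16 tested genes of monocyte-derived macrophages summed to 752 to 842 CPM in LL-MG and 736 to 818 in MG, and to 1154 to 1219 CPM in LL-MDM and 1309 to 1398 in MDM. The macrophage list separated the lineages in all 12 libraries, and the microglia list did so except in MG 2, which lay at the level of MDM. Ccr2, a receptor of blood monocytes, had 2.98, 5.48 and 5.53 CPM in LL-MG, 9.86, 40.6 and 27.1 CPM in MG, 6.56, 9.29 and 10.3 CPM in LL-MDM, and 26.4, 23.2 and 21.8 CPM in MDM, so that it was also as high in MG 2 and MG 3 as in MDM. In bulk libraries a changed share of cells and a changed accessibility per cell cannot be told apart, and the part of either in the interactions below was not tested.

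The interaction was called at 8467 of 77737 tested regions, which is 10.9% (edgeR quasi-likelihood test, Benjamini-Hochberg adjusted p under 0.05). It was positive, meaning that the lipid-load difference was more upward in microglia than in monocyte-derived macrophages, at 3544 regions (4.56%). It was negative at 4923 regions (6.33%). Summed over the span of each gene and 5 kb on either side, it was called for 1356 of 15548 genes (8.72%), of which 924 were positive (5.94%) and 432 negative (2.78%). The median over all regions was −0.13 and over all genes −0.00 on the log2 scale. Without normalising the libraries beyond their totals, the calls at genes split into 775 positive and 588 negative, and those at regions into 4081 positive and 4160 negative. At gene loci 305 of the positive and 168 of the negative calls had an absolute log2 interaction of at least 1. Leaving out MG 1 raised the number of called regions to 17816 and of genes to 3462, and leaving out MG 2 and MG 3 together lowered them to 4844 and 958. Leaving out any 1 of MDM 1, MDM 2, LL-MG 1, LL-MG 2, LL-MG 3, LL-MDM 2 and LL-MDM 3 lowered the called regions to between 3831 and 5468 and the genes to between 713 and 879, and without MG 3 there were 819 genes.

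**Figure D1:**
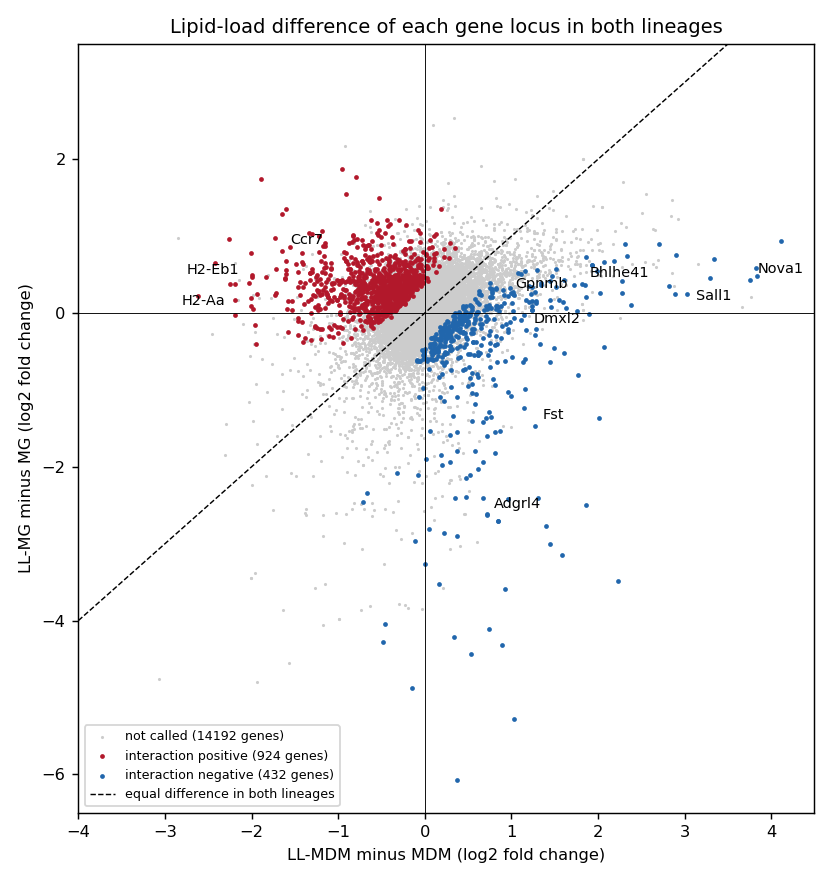
Each point is 1 of 15548 gene loci, placed by its lipid-load difference in monocyte-derived macrophages (LL-MDM minus MDM, log2 fold change, horizontal) and in microglia (LL-MG minus MG, vertical). The dashed line marks equal differences in both lineages: the 924 loci with a positive interaction lie above it, mostly where LL-MDM was below MDM, and the 432 with a negative one lie below it, in one arm along the right where LL-MDM was above MDM (Sall1, Nova1, Dmxl2) and one running downward where LL-MG was below MG (Fst, Adgrl4).

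More interaction regions had a lipid-load call in monocyte-derived macrophages than in microglia. Over the positive regions the median lipid-load difference was 0.58 in LL-MG and −1.08 in LL-MDM, and the signs were opposite, called or not, at 92.2%. Over the negative regions the medians were −0.38 in LL-MG and 1.04 in LL-MDM, with opposite signs at 60.5%, beside 40.0% of all tested regions. Over all tested regions, 12.2% were called between LL-MG and MG (4.21% higher in LL-MG, 8.01% lower) and 29.5% between LL-MDM and MDM (15.4% higher in LL-MDM, 14.1% lower). Of the 3544 positive regions, 2578 were called lower in LL-MDM than in MDM with no call between LL-MG and MG. Another 423 were called higher in LL-MG alone, and 235 were called in opposite directions, higher in LL-MG and lower in LL-MDM. Of the 4923 negative regions, 2677 were called higher in LL-MDM alone, 1418 lower in LL-MG alone, and 247 in opposite directions, lower in LL-MG and higher in LL-MDM. A further 232 were higher in both laden groups but by more in LL-MDM, 19 were lower in both, and 330 negative and 306 positive regions had no call within either lineage. Of the 924 positive genes 530 (57.4%) were lower in LL-MDM alone, 214 (23.2%) higher in LL-MG alone and 120 (12.99%) called in opposite directions, beside 72.7%, 11.9% and 6.63% of positive regions. Of the 432 negative genes 217 were higher in LL-MDM alone and 143 lower in LL-MG alone. Over all tested genes, 18.3% were called between LL-MG and MG (10.3% higher in LL-MG, 7.98% lower) and 23.8% between LL-MDM and MDM (11.7% higher in LL-MDM, 12.2% lower). The lipid-load differences are the 2 terms of the interaction, so these classes describe it and add no support to it. A class called in 1 group alone had no call in the other lineage, which does not show that there was no difference. At Dip2c, LL-MG minus MG was −0.28 ± 0.10 (edgeR adjusted p = 0.058). At Adgrl4, LL-MDM minus MDM was 0.72 ± 0.27 (edgeR adjusted p = 0.056). Depth and the spread between libraries differed between the lineages, and their part in the numbers of calls was not tested.

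**Figure D2:**
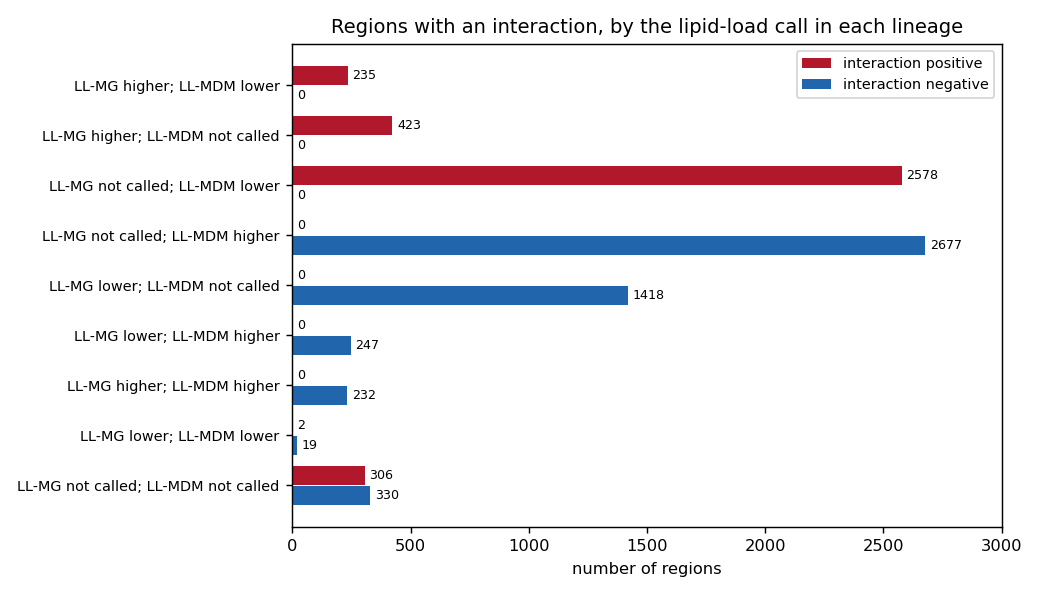
Bars give the number of regions with a positive (red) or negative (blue) interaction in each combination of the lipid-load call in microglia and in monocyte-derived macrophages. The classes with a call in LL-MDM and none in LL-MG hold 2578 positive and 2677 negative regions, and the class lower in LL-MG alone holds 1418 negative regions.

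These classes depended on the MG libraries to different degrees, in part by construction. Classes with a call in LL-MG were chosen by a comparison with the MG libraries that are left out below. Those called in LL-MDM alone were chosen by a call between libraries that stay. Without MG 2 and MG 3, MG 1 is the only MG library, so the shares describe the classes and are no test of them. With MG 2 and MG 3 left out, 58.2% of the 2677 negative regions higher in LL-MDM alone were still called with the same sign, against 10.8% of the 1418 negative regions lower in LL-MG alone. Among positive regions, 80.9% of the 235 with opposite calls and 37.0% of the 2578 lower in LL-MDM alone were still called, against 14.9% of the 423 higher in LL-MG alone. Of all called regions, 33 negative ones and 0 positive ones then had the other sign. With MG 1 left out instead, 3544 positive and 4739 negative regions were called with the same sign.

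Read along the other axis, the interaction was mostly a lineage difference that was smaller between the laden groups. Over all tested regions, 51.7% were called between MG and MDM (26.8% higher in MG, 24.9% lower) and 21.5% between LL-MG and LL-MDM (10.3% higher in LL-MG, 11.2% lower). Of the negative regions, 2880 were called higher in MG than in MDM and not called between LL-MG and LL-MDM, 1037 were called higher in microglia in both states, 173 changed to lower in LL-MG than in LL-MDM, and 600 were called lower in LL-MG than in LL-MDM only between laden cells. Of the positive regions, 2765 were called lower in MG than in MDM and not called between LL-MG and LL-MDM, 268 were lower in microglia in both states, 132 changed to higher in LL-MG, and 295 were called higher in LL-MG only between laden cells. At gene loci, 254 of 432 negative genes were higher in MG than in MDM and not called between the laden groups, and 603 of 924 positive genes were lower in MG than in MDM and not called between them. Over all tested genes, 41.0% were called between MG and MDM (19.8% higher in MG, 21.2% lower) and 20.3% between LL-MG and LL-MDM (12.0% higher in LL-MG, 8.32% lower). The absolute lineage difference was smaller in laden than in non-laden cells at 84.5% of positive and 76.9% of negative regions, against 63.0% of all tested regions. Its median over positive regions was 0.46 between LL-MG and LL-MDM and 1.52 between MG and MDM (log2). Over negative regions it was 0.67 between the laden groups and 1.45 between the non-laden ones. The lineage differences are also the 2 terms of the interaction, so these classes and shares describe it and add no support to it. Library totals ran from 2150072 to 2764146 counts in LL-MG and from 1162969 to 7390521 in LL-MDM. In MG they ran from 2753453 to 6872724, and in MDM from 6341183 to 18938222. The lineage differences were not refitted at equal depth, so the part of depth in their calls was not tested. The interaction itself was called at 1430 regions and 543 genes with all libraries thinned to the smallest total.

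On the CPM scale, the distance that LL-MDM had moved from MDM towards MG differed with direction. At the 3302 interaction regions called lower in MG than in MDM, LL-MDM had covered a median of 81.5% of the gap in CPM (quartiles 61.6% and 96.9%). At the 4105 interaction regions called higher in MG than in MDM, it had covered 47.1% (24.3% and 81.4%). At regions without a called interaction the medians were 52.9% for the 16057 lower in MG and 30.3% for the 16699 higher in MG. These shares are a description without a test, since a called interaction selects for large shares. They also depend on the scale: an equal share of the log2 gap gives a larger share in CPM where MG is below MDM. Shares in log2 were not computed, so the difference between the directions is shown for CPM only.

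MHC class II presentation was the gene list with the most interactions. Of its 15 members 11 were positive and 0 negative, beside 5.94% and 2.78% of all genes. Their median was 1.29 beside −0.00 over all genes. The same 15 genes held 11 that were lower in LL-MDM than in MDM (12.2% of all genes) and 6 that were higher in LL-MG than in MG (10.3% of all genes). H2-Eb1, the I-E beta chain (chr17:34305867-34316674), had 67.7, 54.4 and 51.5 CPM in LL-MG, 49.0, 37.2 and 41.8 CPM in MG, 68.9, 73.3 and 56.3 CPM in LL-MDM, and 228, 236 and 247 CPM in MDM. The 3 MDM libraries stood far above all 9 others, and LL-MG lay above MG by a smaller step. Its interaction of 2.29 ± 0.17 (SE, edgeR adjusted p = 8.8e-08) joined a rise of 0.46 ± 0.13 in LL-MG and a fall of 1.83 ± 0.11 in LL-MDM, and the lineage difference was −0.21 between LL-MG and LL-MDM beside −2.50 between MG and MDM.

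The remaining chains behaved alike in monocyte-derived macrophages. H2-Aa, the I-A alpha chain (chr17:34282744-34287823), had 29.0, 28.3 and 25.6 CPM in LL-MG, 29.9, 20.3 and 24.6 CPM in MG, 56.6, 50.8 and 44.1 CPM in LL-MDM, and 196, 199 and 206 CPM in MDM. The microglial groups overlapped, LL-MDM lay above both, and MDM lay above all. The interaction of H2-Aa was 2.21 ± 0.18 (edgeR adjusted p = 1.6e-07), and LL-MDM was still above LL-MG, with a lineage difference of −0.85 ± 0.13 between the laden groups. H2-Ab1, the I-A beta chain, averaged 101 ± 8.41 CPM in LL-MG, 90.0 ± 10.4 in MG, 120.2 ± 14.6 in LL-MDM and 301 ± 8.61 in MDM (SD, n = 3 each), with an interaction of 1.49 ± 0.14. Cd74, the invariant chain that escorts class II molecules, averaged 95.1 ± 5.18 CPM in LL-MG, 89.1 ± 8.42 in MG, 87.2 ± 6.41 in LL-MDM and 207 ± 9.68 in MDM, with an interaction of 1.34 ± 0.13. The edgeR adjusted p was 1.5e-06 for both.

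Ciita, H2-DMb1 and H2-DMb2 were called in microglia as well. Ciita, the coactivator that switches on class II genes, had 67.3, 62.2 and 63.6 CPM in LL-MG, 53.1, 31.7 and 38.5 CPM in MG, 58.3, 64.6 and 54.4 CPM in LL-MDM, and 102, 89.2 and 95.7 CPM in MDM. No LL-MG value fell among those of MG, and no LL-MDM value among those of MDM. It was called in opposite directions, 0.70 ± 0.14 in LL-MG and −0.67 ± 0.12 in LL-MDM, with an interaction of 1.38 ± 0.19 (edgeR adjusted p = 0.00020). H2-DMb1 and H2-DMb2, beta chains of the peptide exchange factor, had interactions of 1.72 ± 0.20 and 1.31 ± 0.21. They share 70.0% and 92.8% of their counts with neighbouring loci, so these are not separate measurements. H2-Eb2 had 1.29 ± 0.20 and H2-Ob, a chain of the factor that restrains peptide exchange, 0.89 ± 0.18, both without a call in LL-MG (0.06 and 0.07). Cd86 and Cd80, the costimulatory ligands, had 0.84 ± 0.18 and 0.72 ± 0.14. Without MG 2 and MG 3 the list held 9 positive calls. The 4 members without a called interaction were Cd40 at 0.96 ± 0.32, Cd83 at 0.85 ± 0.24, H2-DMa at 0.16 ± 0.11 and H2-Oa at −0.26 ± 0.26.

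**Figure D3:**
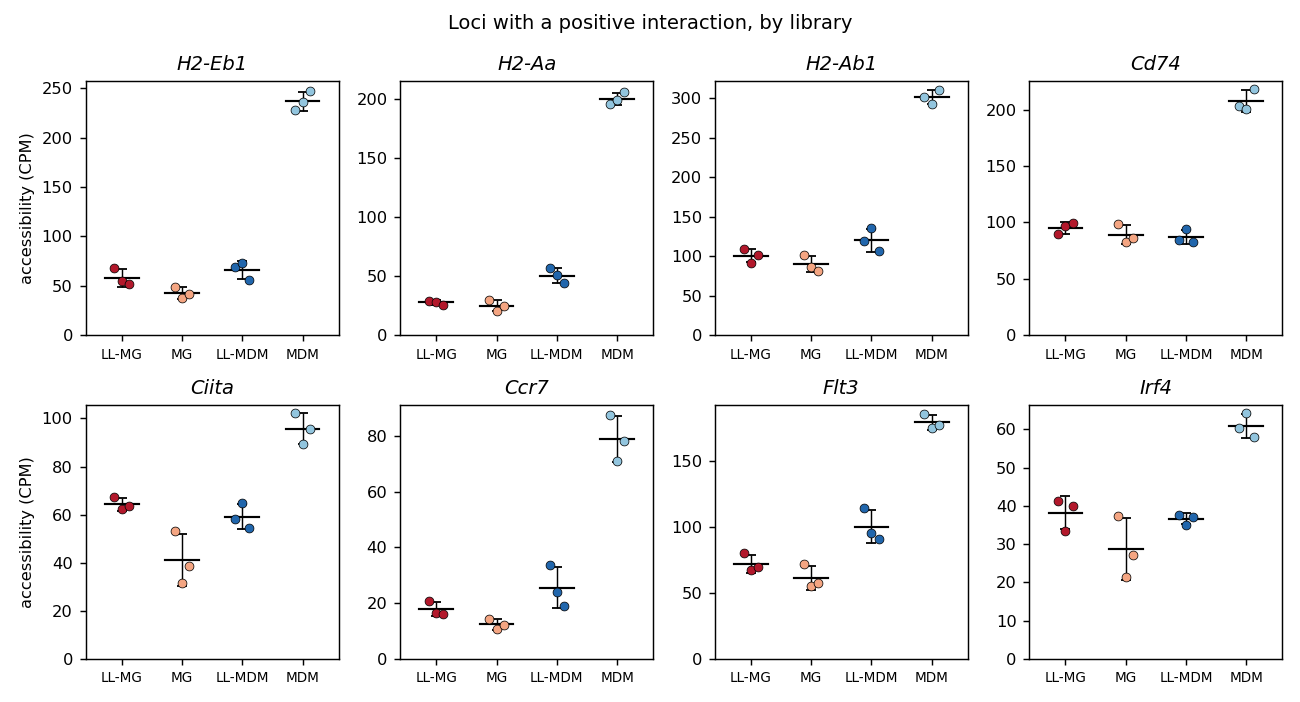
Accessibility in CPM of 8 loci with a positive interaction, with 1 point per library, the mean as a bar and the SD as the error bar, for LL-MG, MG, LL-MDM and MDM (n = 3 each). At all 8 loci the 3 MDM libraries stand above the other 9, and the LL-MG mean is above the MG mean. The difference between LL-MG and MG was called at H2-Eb1, Ciita and Irf4.

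Class II genes are switched on through a module of an X box followed by a Y box in their promoters, to which RFX and NF-Y factors bind and recruit Ciita. The promoter windows below (RefSeq, GRCm38.p6, the assembly of mm10, 250 bases before to 50 after the listed start) are printed because they lie in regions whose accessibility was tested. Capitals mark the core of the X box (AACNNATG) and the Y box (GATTGG), on either strand. The H2-Eb1 window is chr17:34305617-34305916 on the plus strand, that of H2-DMb1 is chr17:34152941-34153240 on the plus strand, and that of H2-Aa is chr17:34287774-34288073 on the minus strand.
H2-Eb1: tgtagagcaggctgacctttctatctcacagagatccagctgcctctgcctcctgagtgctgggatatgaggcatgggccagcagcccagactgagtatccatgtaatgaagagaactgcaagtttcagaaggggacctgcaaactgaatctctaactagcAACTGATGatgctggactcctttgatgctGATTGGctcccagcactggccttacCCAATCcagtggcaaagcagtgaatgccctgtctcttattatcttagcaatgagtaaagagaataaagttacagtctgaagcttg
H2-DMb1: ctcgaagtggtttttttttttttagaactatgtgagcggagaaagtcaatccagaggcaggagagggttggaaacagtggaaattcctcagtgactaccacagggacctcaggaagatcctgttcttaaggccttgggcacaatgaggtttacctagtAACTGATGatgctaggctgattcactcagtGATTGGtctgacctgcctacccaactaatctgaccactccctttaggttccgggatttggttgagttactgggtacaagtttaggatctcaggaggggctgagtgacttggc
H2-Aa: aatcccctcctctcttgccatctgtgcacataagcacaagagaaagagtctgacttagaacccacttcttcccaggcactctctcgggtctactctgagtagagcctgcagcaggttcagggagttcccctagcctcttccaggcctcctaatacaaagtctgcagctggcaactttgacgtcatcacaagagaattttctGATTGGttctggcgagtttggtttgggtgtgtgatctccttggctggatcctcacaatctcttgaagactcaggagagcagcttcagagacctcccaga

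The region over the H2-Eb1 window (chr17:34305648-34306119) had 12.7, 14.1 and 13.4 CPM in LL-MG, 13.7, 10.1 and 12.0 CPM in MG, 17.7, 20.7 and 13.4 CPM in LL-MDM, and 68.7, 73.2 and 79.8 CPM in MDM. Its interaction was 2.25 ± 0.26 (edgeR adjusted p = 3.9e-06), with no call in LL-MG (0.20 ± 0.21), so the rise of the whole H2-Eb1 locus in LL-MG was not called at its promoter. The region over the H2-DMb1 window (chr17:34152819-34153444) averaged 17.01 CPM in LL-MG, 12.3 in MG, 18.4 in LL-MDM and 37.3 in MDM, with an interaction of 1.53 ± 0.26. Over the H2-Aa window (chr17:34287527-34288105) the means were 12.6 CPM in LL-MG, 11.2 in MG, 19.1 in LL-MDM and 73.4 in MDM, with an interaction of 2.119 ± 0.268. The H2-Aa window holds the letters of the Y box but not those of the X core searched for.

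The same module stands in 3 more class II windows, printed from the X core to the Y box so that the spacing can be compared.
H2-DMb2: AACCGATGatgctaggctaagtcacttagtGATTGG
H2-Eb2: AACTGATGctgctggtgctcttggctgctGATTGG
H2-Ob: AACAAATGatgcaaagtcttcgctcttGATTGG
The H2-DMb2 region had an interaction of 3.39 ± 0.93 (edgeR adjusted p = 0.018). It rests on few counts, with 0, 3 and 5 in the LL-MG libraries and 2, 5 and 0 in MG, beside 5, 14 and 5 in LL-MDM and 131, 229 and 75 in MDM. The regions over the H2-Eb2 and H2-Ob windows were not called, with interactions of 0.68 ± 0.48 and 0.70 ± 0.41. An X core followed within 5 to 30 bases by a Y box, in the same order on either strand, was found in 25 of 32817 promoter windows (0.0762%) and in 13 of 12708 that lie on a tested region (0.102%). It was found in 3 of 118 windows on a positive region, which are H2-Eb1, H2-DMb1 and H2-DMb2, and in 0 of 868 on a negative region. A match describes the letters only, and no window was listed for H2-Ab1, Ciita or Ccr7.

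Dendritic cell genes had the next highest share of positive calls among the lists, 5 of 8 beside 5.94% of all genes. Among other lists, neuronal (2 of 5), astrocyte (2 of 6) and endothelial genes (2 of 6) also lay above that share. The dendritic cell list held 0 negative calls, beside 2.78% of all genes, and had a median of 0.69. Ccr7, the chemokine receptor that guides dendritic cells to lymph nodes, had 20.9, 16.5 and 16.2 CPM in LL-MG, 14.3, 10.6 and 12.2 CPM in MG, 33.6, 23.95 and 19.1 CPM in LL-MDM, and 87.4, 70.9 and 78.3 CPM in MDM. MDM stood apart from all 9 other libraries, and LL-MG lay just above MG. The interaction of Ccr7 was 2.29 ± 0.25 (edgeR adjusted p = 7.3e-06). Flt3, the growth factor receptor of dendritic cell precursors, averaged 72.3 ± 6.79 CPM in LL-MG, 61.7 ± 9.09 in MG, 100.5 ± 12.6 in LL-MDM and 179.7 ± 5.82 in MDM, with an interaction of 1.13 ± 0.15. Xcr1, the receptor of cross-presenting dendritic cells, differed in the other lineage: it averaged 57.5 ± 5.28 CPM in LL-MG, 38.7 ± 2.23 in MG, 39.7 ± 4.88 in LL-MDM and 42.5 ± 1.68 in MDM, with an interaction of 0.64 ± 0.15, although its counts all fall to neighbouring loci as well. Clec9a at 0.74 ± 0.23 and Zbtb46 at 0.38 ± 0.11 passed the test narrowly, while Batf3 at 0.24 ± 0.23, Itgae at 0.01 ± 0.13 and Cd209a at 0.82 ± 1.09 did not. Counts of Clec9a are shared with neighbouring loci entirely, and those of Zbtb46 to 52.9%. Over regions of a single gene the list held 3 positive calls. Zbtb46 lost its call under 14 of 24 alternatives with groups by library name and the list held 2 calls without LL-MG 3, 2 without MG 2 and MG 3, and 6 without MG 1.

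The 8 dendritic cell genes summed to 592 to 627 CPM in LL-MG, 524 to 596 in MG, 522 to 556 in LL-MDM and 725 to 786 in MDM, so that their sum was highest in MDM as that of the class II genes was. The 15 class II genes summed to 1427 to 1501 CPM in LL-MG, 1114 to 1426 in MG, 1452 to 1630 in LL-MDM and 2543 to 2695 in MDM. The part of dendritic cells in the class II interactions was not tested. B cells also present antigen on class II, and their 6 genes summed to 125 to 139 CPM in LL-MG, 109 to 136 in MG, 123 to 144 in LL-MDM and 129 to 134 in MDM, with overlap of all groups. Pax5, the B cell transcription factor, was their 1 called member, at 1.45 ± 0.29.

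Irf4, a transcription factor of antigen-presenting cells, was the 1 positive member of 20 macrophage transcription factors, whose median was 0.11. It had 41.3, 33.4 and 40.1 CPM in LL-MG, 37.4, 21.5 and 27.1 CPM in MG, 37.7, 34.9 and 37.2 CPM in LL-MDM, and 60.4, 64.3 and 58.1 CPM in MDM. LL-MG and MG overlapped through MG 1, and MDM stood above all others. Both lipid-load differences were called in opposite directions, 0.49 ± 0.16 in LL-MG and −0.76 ± 0.13 in LL-MDM, with an interaction of 1.24 ± 0.21 (edgeR adjusted p = 0.00087). Its promoter region on chromosome 13 was also positive, at 0.95 ± 0.25. With all libraries thinned to the smallest total, the call at the Irf4 locus was lost (edgeR adjusted p = 0.052).

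Outside the lists, the positive loci with the smallest p included a pair of neighbours on chromosome 2. Snph, which encodes the mitochondrial anchor syntaphilin, had 33.2, 33.8 and 35.9 CPM in LL-MG, 22.1, 18.1 and 25.2 CPM in MG, 26.3, 25.3 and 30.9 CPM in LL-MDM, and 82.1, 80.4 and 85.8 CPM in MDM. LL-MG lay above MG without overlap, and MDM above all. Its interaction was 2.28 ± 0.18 (edgeR adjusted p = 1.4e-07), and that of Sdcbp2, a syntenin with PDZ domains, 1.85 ± 0.15, but 82.8% and 51.3% of their counts are shared with neighbouring loci. Casr, the calcium-sensing receptor, averaged 22.6 ± 2.96 CPM in LL-MG, 17.8 ± 6.81 in MG, 34.6 ± 2.15 in LL-MDM and 135 ± 3.33 in MDM, with an interaction of 2.46 ± 0.24. Haao, an enzyme of the kynurenine pathway, at 1.33 ± 0.14, Slc23a4 at 2.01 ± 0.18 and 1700025G04Rik at 1.19 ± 0.11 were called in opposite directions in the lineages. Grasp, a scaffold protein, at 1.22 ± 0.13, and St8sia1, which makes the ganglioside GD3, at 1.01 ± 0.11 were called in LL-MDM alone.

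Of the 10 positive regions named, 6 were called in opposite directions in the lineages, beside 6.63% of all positive regions. The other 4, those at Cd74, H2-Aa, H2-Eb1 and Ggta1, were called lower in LL-MDM alone, beside 72.7%. The 10 were named for the smallest p of the interaction, so they do not stand for all positive regions. A region inside Ccdc149 (chr5:52385900-52386538) had 12.2, 6.11 and 6.90 CPM in LL-MG, 3.34, 2.74 and 2.20 CPM in MG, 11.5, 10.7 and 8.56 CPM in LL-MDM, and 34.2, 29.99 and 31.1 CPM in MDM. All LL-MG values were above those of MG, and all LL-MDM values below those of MDM. Its interaction was 3.27 ± 0.37 (edgeR adjusted p = 3.2e-06). A region inside Vav2 (chr2:27404822-27405505), averaged 18.3 ± 4.22 CPM in LL-MG, 10.04 ± 2.01 in MG, 12.1 ± 1.31 in LL-MDM and 36.9 ± 2.08 in MDM, with an interaction of 2.43 ± 0.28. Regions inside Ston2 at 2.44 ± 0.29 and 1700025G04Rik at 2.29 ± 0.28, a region 13861 bp outside Smndc1 at 1.80 ± 0.22 and one 26017 bp outside Tent5c at 2.90 ± 0.39 were also called in opposite directions. The region inside Ggta1 was at 2.83 ± 0.34.

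Microglia identity genes divided. Of 18 members 3 were negative and 1 positive, beside 2.78% and 5.94% of all genes, and the median was 0.13. Sall1, the transcription factor that maintains microglial identity (chr8:89027242-89044162), had 63.4, 85.0 and 64.6 CPM in LL-MG, 71.4, 37.8 and 50.3 CPM in MG, 11.5, 9.42 and 5.94 CPM in LL-MDM, and 0.83, 1.02 and 0.47 CPM in MDM. LL-MG and MG overlapped, LL-MDM lay well below both, and MDM was near 0. The interaction was −2.85 ± 0.44 (edgeR adjusted p = 0.0012), from 3.30 ± 0.39 in LL-MDM and 0.45 ± 0.20 in LL-MG. It is an interaction of ratios: in CPM the difference in LL-MG exceeded that in LL-MDM by 9.70, the opposite sign. The MDM libraries held 12, 20 and 3 counts, and the ratio of LL-MDM to MDM was 10.2 (exact 95% interval 6.92 to 15.5, counting error only).

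Other microglial loci reached higher levels in LL-MDM. Bhlhe41, a transcription factor of tissue macrophages (chr6:145858243-145865420), had 117, 158 and 123 CPM in LL-MG, 137, 75.1 and 101 CPM in MG, 73.9, 86.4 and 77.2 CPM in LL-MDM, and 24, 23.1 and 20.7 CPM in MDM. LL-MG overlapped MG, MG 2 fell among LL-MDM, and MDM lay below all others. Its interaction was −1.45 ± 0.27 (edgeR adjusted p = 0.0078), and that of its promoter region −2.45 ± 0.29. Tmem119, a surface marker of microglia (chr5:113793729-113800396), had 54.1, 58.0 and 52.2 CPM in LL-MG, 49.99, 35.3 and 45.8 CPM in MG, 78.0, 66.5 and 67.8 CPM in LL-MDM, and 30.02, 27.4 and 34.1 CPM in MDM. Here LL-MDM stood above LL-MG and MDM below MG, and the interaction was −0.85 ± 0.17 (edgeR adjusted p = 0.0045). Selplg, the P-selectin ligand, went the other way at 1.21 ± 0.17, since it was lower in LL-MDM (85.3 ± 16.7 CPM) than in MDM (156 ± 7.28 CPM).

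The other 14 microglia genes had no called interaction. Sall3 was at −0.88 (95% interval −1.59 to −0.17), Fcrls at −0.57 (−1.25 to 0.11), P2ry12 at 0.28 (−0.39 to 0.96) and Cx3cr1 at 0.33 (0.08 to 0.57). These intervals leave room for differences of up to 1.59 in size, so they do not show equal changes in both lineages. Sall3 was called without MG 2 (−1.12, edgeR adjusted p = 0.012) and without MG 2 and MG 3 (−1.44, adjusted p = 0.0013), and Cx3cr1 without MG 1 (0.37, adjusted p = 0.015). With MG 2 and MG 3 left out, the number of negative microglia genes was 6, with MG 2 alone left out it was 5, over gene spans alone it was 2, and with all libraries thinned to the smallest total it was 1. Sall1 lost its call after thinning (edgeR adjusted p = 0.078), and Tmem119 after thinning (0.066) and over gene spans alone (0.15). Of 16 tested genes of monocyte-derived macrophages 1 was positive and 0 negative, beside 5.94% and 2.78% of all genes. The positive one was Itga4, the integrin alpha 4 chain of blood-derived cells, with an interaction of 0.73 ± 0.17. Itga4 averaged 48.2 ± 7.31 CPM in LL-MG, 42.0 ± 5.72 in MG, 79.8 ± 2.37 in LL-MDM and 117 ± 13.2 in MDM. The monocyte receptor Ccr2 was at −1.17 (−2.61 to 0.27), but was called without MG 1 (−1.51, edgeR adjusted p = 0.00072) and was at 0.31 without MG 2 and MG 3, and Ms4a7 at 0.25 (−0.20 to 0.70).

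**Figure D4:**
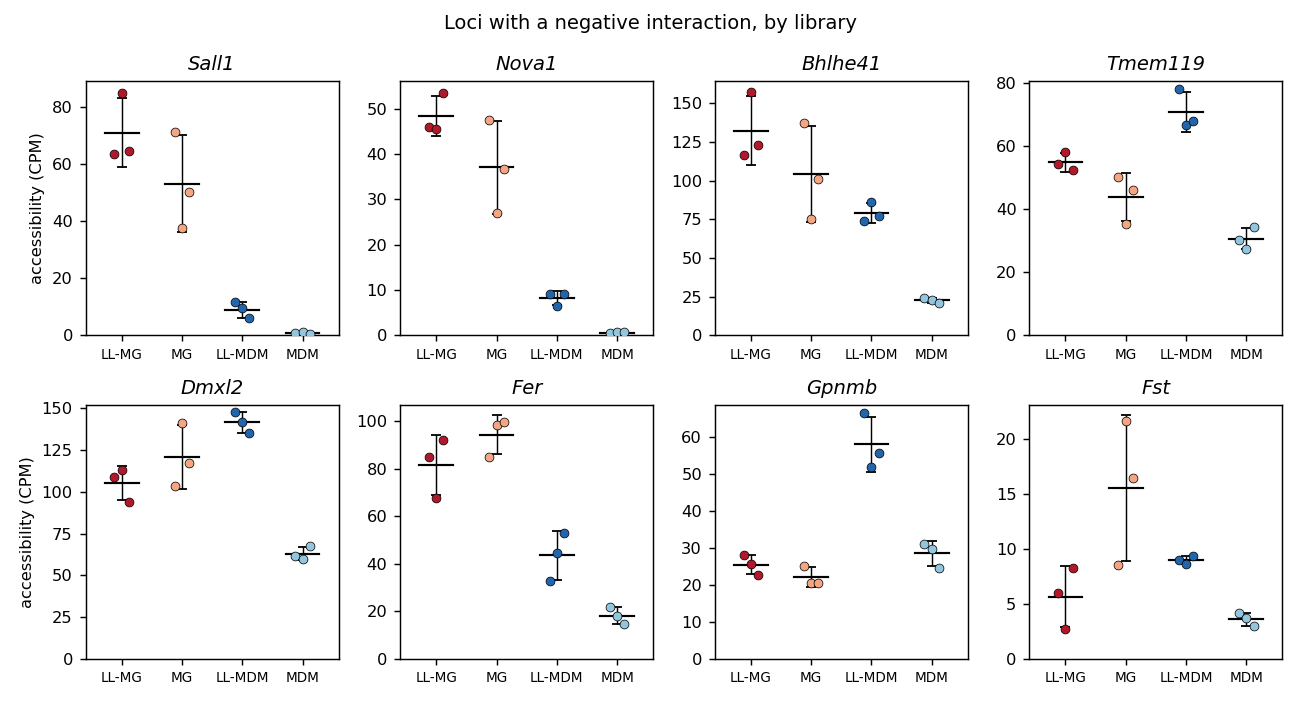
Accessibility in CPM of 8 loci with a negative interaction, with 1 point per library, the mean as a bar and the SD as the error bar, for LL-MG, MG, LL-MDM and MDM (n = 3 each). MDM is the lowest group at Sall1, Nova1, Bhlhe41, Tmem119, Dmxl2 and Fer and LL-MDM is above it, whereas at Gpnmb LL-MDM is above all other groups and at Fst the MG libraries spread between 8.50 and 21.6 CPM.

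Among the negative loci with the smallest p, several were also higher in LL-MDM than in MDM without a call in LL-MG. Dmxl2, which helps assemble the vesicle proton pump (chr9:54365158-54501866), had 109, 113 and 93.6 CPM in LL-MG, 103, 141 and 117 CPM in MG, 148, 142 and 135 CPM in LL-MDM, and 61.6, 59.9 and 67.4 CPM in MDM. LL-MG and MG overlapped, and all LL-MDM values lay above those of MDM. They also lay above those of LL-MG, with a lineage difference of −0.42 ± 0.11 between the laden groups. The interaction was −1.39 ± 0.14 (edgeR adjusted p = 5.7e-06), and its promoter region on chromosome 9 was at −1.66 ± 0.19. Nova1, a splicing factor best known from neurons, had 46.0, 45.7 and 53.6 CPM in LL-MG, 47.6, 26.9 and 36.8 CPM in MG, 9.03, 6.41 and 9.06 CPM in LL-MDM, and 0.41, 0.61 and 0.63 CPM in MDM, the pattern of Sall1. Its interaction was −3.33 ± 0.39, but in CPM the difference in LL-MG exceeded that in LL-MDM by 3.68, and the ratio of LL-MDM to MDM was 13.8 (exact 95% interval 8.57 to 23.1). The call at Nova1 was lost after thinning (edgeR adjusted p = 0.055).

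Fer, a cytoplasmic tyrosine kinase, averaged 81.6 ± 12.5 CPM in LL-MG, 94.4 ± 8.14 in MG, 43.5 ± 10.2 in LL-MDM and 18.2 ± 3.44 in MDM, with an interaction of −1.49 ± 0.20. Dip2c at −1.02 ± 0.14, Itih1 at −1.001 ± 0.153, Trcg1 at −1.06 ± 0.19 and Marchf8, a ubiquitin ligase that removes class II and costimulatory molecules from the cell surface, at −1.56 ± 0.21 were also higher in LL-MDM alone. Marchf8 shares 95.03% of its counts with a neighbouring locus, and the region over its promoter on chromosome 6 was at −1.61 ± 0.23. The call at Trcg1 was lost over gene spans alone (edgeR adjusted p = 0.26). Over all negative calls the sign in CPM was the other one at 469 of 4923 regions (9.53%) and 16 of 432 genes, against 0 of 3544 positive regions.

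Among single regions, 9 of the 10 negative ones named were higher in LL-MDM alone, beside 54.4% of all negative regions. They too were named for the smallest p. A region inside Mms19 (chr19:41973938-41974399) had 29.9, 30.6 and 26.9 CPM in LL-MG, 28.9, 14.6 and 19.0 CPM in MG, 6.20, 12.4 and 10.3 CPM in LL-MDM, and 0.44, 0.33 and 0.51 CPM in MDM. Its interaction was −4.14 ± 0.42 (edgeR adjusted p = 1.1e-06), and the MDM libraries held 6, 6 and 3 counts, for a ratio of LL-MDM to MDM of 28.6 (exact 95% interval 16.7 to 52.7). Regions inside Nova1 (−4.04 ± 0.42), Nfic (−3.03 ± 0.34), Manba (−2.86 ± 0.33), Rasa3 (−2.95 ± 0.35) and Galnt1 (−2.69 ± 0.29) and one 11346 bp outside Npnt (−3.71 ± 0.43) also had LL-MDM between the microglial groups and MDM. A region inside Pde4d (chr13:109632456-109632763) differed, with 3.62, 3.76 and 3.99 CPM in LL-MG, 5.93, 12.5 and 9.27 CPM in MG, 15.1, 9.88 and 8.90 CPM in LL-MDM, and 2.70, 1.85 and 2.22 CPM in MDM. It was called lower in LL-MG and higher in LL-MDM, with an interaction of −3.55 ± 0.43.

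The list of disease-associated microglia and lipid-associated macrophages had 3 negative and 2 positive calls among its 20 genes, with a median of −0.18. Of all genes 2.78% were negative and 5.94% positive. Gpnmb, a lysosomal glycoprotein of lipid-laden macrophages (chr6:49036518-49058182), had 28.1, 25.6 and 22.8 CPM in LL-MG, 25.2, 20.6 and 20.4 CPM in MG, 66.5, 52.1 and 55.6 CPM in LL-MDM, and 31.2, 29.8 and 24.7 CPM in MDM. LL-MDM alone stood apart, and the interaction was −0.74 ± 0.20 (edgeR adjusted p = 0.024), or −1.25 ± 0.31 over its promoter region. The call at Gpnmb was lost under 6 of 24 alternatives, among them leaving out MDM 3. Ctsd, a lysosomal protease, at −0.60 ± 0.15, and the tetraspanin Cd63 at −0.50 ± 0.12 were called higher in both laden groups, by 0.30 in LL-MG and 0.90 in LL-MDM for Ctsd and by 0.32 and 0.82 for Cd63. Counts of Cd63 are shared with neighbours to 86.7%, and those of Ctsd to 20.4%. The interaction call at Cd63 was lost after thinning and over regions of a single gene. That at Ctsd was lost under 3 of 24 alternatives, among them gene spans alone. Clec7a, the beta-glucan receptor, at 1.04 ± 0.22, and the integrin Itgax at 0.71 ± 0.17 were positive and lower in LL-MDM than in MDM. The call at Clec7a was lost after thinning (edgeR adjusted p = 0.26), and that at Itgax without MG 2 and MG 3. Counts of Clec7a are shared with neighbours to 24.3%.

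Over the 4 lists of genes that handle lipid, 4 of 55 tested members were called (7.27%), near the 8.72% of all genes. Among 14 genes of cholesterol efflux and liver X receptor targets 1 was positive and 1 negative (median −0.01), among 13 of lipid uptake and storage 0 either way (median 0.06), among 14 of PPAR and fatty acid oxidation 0 and 1 (median 0.03), and among 14 of sterol biosynthesis 1 and 0 (median 0.02). Abca1, the cholesterol exporter (chr4:53030789-53159988), had 317, 318 and 298 CPM in LL-MG, 275, 179 and 220 CPM in MG, 359, 398 and 390 CPM in LL-MDM, and 226, 217 and 248 CPM in MDM. It was called higher in both laden groups without overlap, by 0.48 ± 0.11 in LL-MG and 0.74 ± 0.11 in LL-MDM, and its interaction of −0.26 (95% interval −0.59 to 0.07) was not called. It was called without MG 2 (−0.41, edgeR adjusted p = 0.027) and without MG 2 and MG 3 (−0.57, adjusted p = 0.0014). Its promoter region was called at −0.59 ± 0.18. Plin2, the coat protein of lipid droplets, had 65.1, 79.1 and 67.7 CPM in LL-MG, 59.5, 39.0 and 53.0 CPM in MG, 66.5, 66.6 and 61.3 CPM in LL-MDM, and 43.4, 42.5 and 43.4 CPM in MDM. It too was higher in both laden groups, with an interaction of −0.07 (−0.43 to 0.29), so that a difference between lineages of more than 0.43 lay outside its interval.

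Apoe, the main lipid carrier of macrophages, was at −0.29 (95% interval −0.63 to 0.05) over its locus, all of whose counts are shared with neighbours, and at −1.21 ± 0.34 over the region of its promoter (edgeR adjusted p = 0.020). Abcg1 was at 0.24 (−0.11 to 0.60), Trem2, a lipid-sensing receptor, at −0.15 (−0.74 to 0.43), Spp1 at −0.24 (−0.75 to 0.26) and the scavenger receptor Cd36 at 0.21 (−0.15 to 0.57). Olr1, a receptor for oxidised lipoprotein, was at 0.47 (0.12 to 0.81) over its locus without a call, and its promoter region was called with the other sign, at −1.52 ± 0.38. The locus was called without MG 2 (0.61, edgeR adjusted p = 0.018), and that of Abcg1 without MG 1 (0.36, adjusted p = 0.037). The called members were Nr1h3, which encodes liver X receptor alpha, at 0.50 ± 0.12, with 180.4 ± 10.9 CPM in LL-MG, 135.5 ± 12.8 in MG, 209 ± 6.398 in LL-MDM and 221 ± 13.3 in MDM, then Apoc1 at −1.48 ± 0.42, Rxra, the partner of liver X receptors, at −0.52 ± 0.15, and Srebf2, the regulator of sterol synthesis, at 0.41 ± 0.11. Counts of Nr1h3 are shared with neighbours to 70.5% and those of Apoc1 entirely, and the calls were lost under 7 of 22 alternatives at Apoc1, and under 8, 7 and 3 of 24 at Rxra, Srebf2 and Nr1h3.

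**Figure D5:**
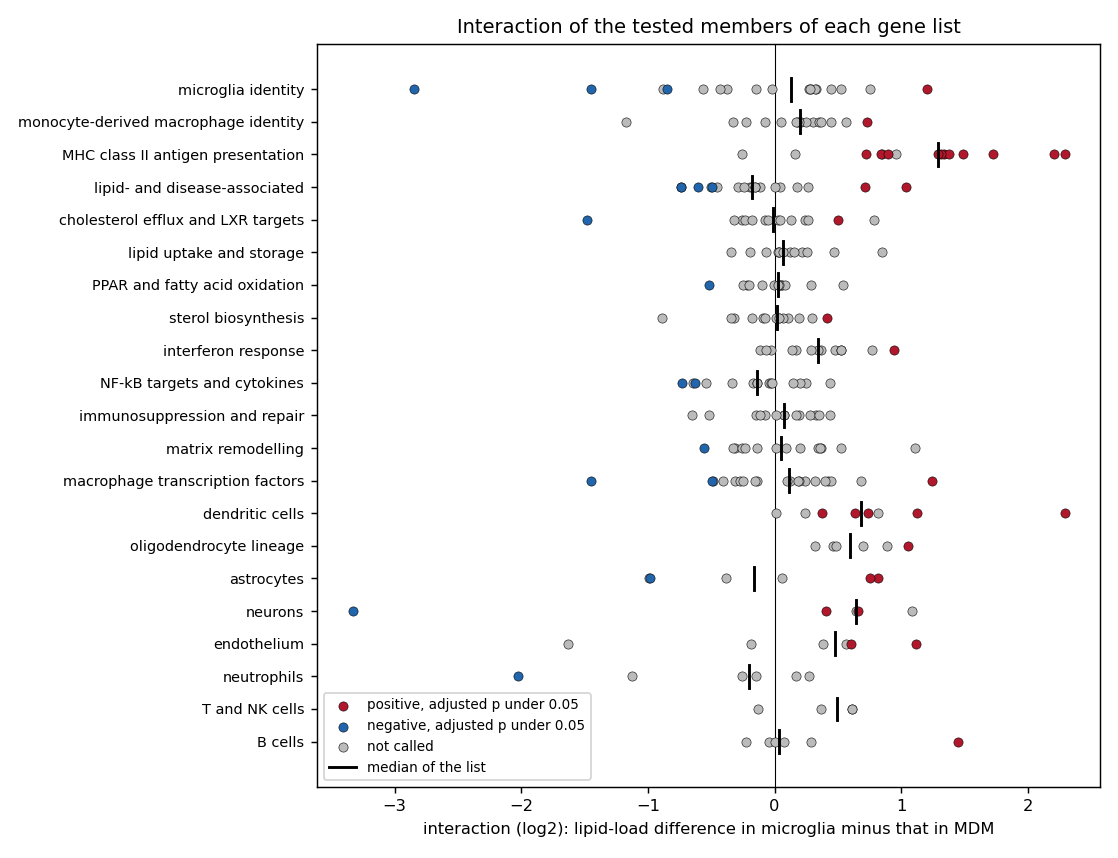
Each point is the interaction (log2) of a tested member of a gene list, red where called positive, blue where called negative and grey where not called, and the black bar is the list's median. The class II list has a median of 1.29 with 11 red points, the lists of efflux, uptake, PPAR and sterol genes have medians near 0 with at most 1 call in each direction, and the microglia list reaches down to Sall1 at −2.85 and holds 1 red point (Selplg).

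At another set of negative loci LL-MG was called lower than MG. Fst, the activin inhibitor follistatin, had 5.96, 2.74 and 8.29 CPM in LL-MG, 8.50, 21.6 and 16.4 CPM in MG, 9.03, 8.64 and 9.38 CPM in LL-MDM, and 4.15, 3.69 and 2.99 CPM in MDM. MG 2 and MG 3 were high and MG 1 lay near LL-MG 3. It was called lower in LL-MG (−1.47 ± 0.34, log2) and higher in LL-MDM (1.27 ± 0.32). Its interaction was −2.74 ± 0.46 (edgeR adjusted p = 0.0011) and −1.79 without MG 2 and MG 3 (adjusted p = 0.019). Adgrl4, an adhesion receptor best known from endothelium, had 3, 2 and 2 counts in the LL-MG libraries, 8, 62 and 25 in MG, 15, 70 and 39 in LL-MDM, and 100, 132 and 36 in MDM. It was called in LL-MG alone. The ratio of LL-MG to MG was 0.132 (exact 95% interval 0.0518 to 0.283, counting error only), and the interaction of −3.35 ± 0.57 lost its call without MG 2 and MG 3 (−2.20, adjusted p = 0.11).

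Zfp704, a zinc finger protein, averaged 145 ± 7.41 CPM in LL-MG, 204 ± 41.7 in MG, 138 ± 18.2 in LL-MDM and 91.9 ± 3.49 in MDM, and was called lower in LL-MG and higher in LL-MDM, with an interaction of −1.13 ± 0.17. Eaf1, an elongation factor partner, was called in the same directions at −1.11 ± 0.17, with all its counts shared with neighbours. Both kept their calls without MG 2 and MG 3, at −0.79 and −0.69. Among 15 NF-kB targets and cytokines, 2 were negative and 0 positive (median −0.14), beside 2.78% and 5.94% of all genes. Ccl4, a chemokine, had 246, 244 and 212 CPM in LL-MG, 263, 413 and 316 CPM in MG, 141, 149 and 128 CPM in LL-MDM, and 125, 124 and 137 CPM in MDM. All LL-MG values lay below those of MG, and the groups of monocyte-derived macrophages overlapped. Its interaction of −0.63 ± 0.18 (edgeR adjusted p = 0.042) and that of its neighbour Ccl3, −0.73 ± 0.19, rest on shared counts. The call at Ccl4 was lost under 14 of 24 alternatives, among them without MG 3 and without MG 2 and MG 3 (edgeR adjusted p = 0.19 in the second case).

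Over the lists of interferon, immunosuppression and matrix genes 2 of 41 tested members were called (4.88%), and 3 of 20 macrophage transcription factors (15.0%), beside 8.72% of all genes. Among 13 interferon genes 1 was positive and 0 negative (median 0.34), namely Bst2, the virus-tethering protein tetherin. It had 40.0, 38.4 and 35.9 CPM in LL-MG, 30.3, 21.9 and 25.02 CPM in MG, 36.1, 38.1 and 39.1 CPM in LL-MDM, and 51.5, 48.1 and 44.9 CPM in MDM, with the laden groups at one level between MG and MDM. Its interaction was 0.95 ± 0.17 (edgeR adjusted p = 0.0018), and the call was lost after thinning (edgeR adjusted p = 0.12). Immunosuppression and repair had 0 calls among 14 (median 0.07), and matrix remodelling 1 negative among 14 (median 0.05), the metalloproteinase inhibitor Timp2, at −0.56 ± 0.14, which was higher in both laden groups. Of 20 macrophage transcription factors 2 were negative, Bhlhe41 and Cebpa, which encodes the myeloid factor C/EBP alpha, at −0.50 ± 0.13.

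Over the 7 lists of cell types that a sort of macrophages should not hold, 11 of 39 tested members were called (28.2%), a higher share than the 8.72% of all genes. Of 6 oligodendrocyte lineage genes 1 was positive (Pdgfra, 1.06 ± 0.30), of 6 astrocyte genes 2 were positive (Gfap and Slc1a2) and 1 negative (S100b), of 5 neuronal genes 2 were positive (Dlg4 and Tubb3) and 1 negative (Nova1), and of 6 endothelial genes 2 were positive (Pecam1 and Esam). Of 6 neutrophil genes 1 was negative (S100a8, with 1, 3 and 5 counts in LL-MG and 7, 21 and 17 in MG), of 4 T and NK cell genes 0, and of 6 B cell genes 1 was positive (Pax5). Counts of Esam and S100b are shared with neighbouring loci entirely, those of Tubb3 to 80.23%, and those of Gfap and Dlg4 to a smaller part. Pdgfra, Slc1a2, Nova1, Pecam1, S100a8 and Pax5 share no counts with neighbours. The calls were lost under 19 of 24 alternatives at Tubb3, 17 of 24 at Dlg4, 17 of 23 at Esam, 13 of 22 at S100a8, 11 of 24 at Pdgfra, 9 of 23 at S100b, 6 of 24 at Slc1a2 and 4 of 24 at Gfap. The medians of these 7 lists, in the same order, were 0.59, −0.16, 0.64, 0.47, −0.20, 0.49 and 0.04. Among their other members, Mog, Aqp4, Sox9, Snap25, Stmn2, Syt1, Cldn5, Tek, Retnlg, Cd8a, Gzma, Ncr1 and Trac had counts too low to be tested. The astrocyte genes summed to 245 to 257 CPM in LL-MG, 161 to 211 in MG, 176 to 187 in LL-MDM and 159 to 179 in MDM, and the neuronal genes to 255 to 292 CPM in LL-MG, 183 to 235 in MG, 177 to 191 in LL-MDM and 176 to 206 in MDM. Both sums were thus highest in LL-MG. The oligodendrocyte genes, which include markers of tumour progenitors, summed to 297 to 326 CPM in LL-MG, 265 to 283 in MG, 276 to 302 in LL-MDM and 334 to 351 in MDM. The endothelial genes summed to 318 to 337 CPM in LL-MG, 333 to 353 in MG, 328 to 346 in LL-MDM and 407 to 430 in MDM. The T and NK cell genes summed to 94.3 to 111 CPM in LL-MG, 106 to 113 in MG, 91.6 to 103 in LL-MDM and 113 to 124 in MDM, and the neutrophil genes to 123 to 132 CPM in LL-MG, 133 to 164 in MG, 176 to 185 in LL-MDM and 193 to 198 in MDM. These 4 sums were highest in MDM, as was that of the class II genes. The part of such cells in the interactions at these loci was not tested.

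Interaction regions lay at different distances from gene starts by direction. Of positive regions with listed starts 7.45% were within 1 kb of a start, against 20.3% of negative and 22.2% of all tested regions, and the median distances were 14640 bp, 13660 bp and 11190 bp. By the peak calls in the region names, 99.9% of positive regions carried an MDM call and 48.7% an MG call, while 93.4% of negative regions carried an MG call and 73.9% an MDM call, beside 92.5% with an MDM and 68.8% with an MG call among all tested regions. Promoter windows on positive regions held the AP-1 letters TGANTCA in 16.9% of 118 and the PU.1 letters GAGGAAGT in 11.0%, against 5.50% and 3.71% of 12708 windows on any tested region. Those on negative regions held them in 6.11% and 3.00% of 868, and held CACGTG, the letters of the lysosomal CLEAR element and other E boxes, in 13.9%, against 10.7% of windows on any tested region. All motifs were searched on both strands, and the shares are a description of these letters.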

How the data were processed

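ATAC-seq was run on nuclei of sorted cells, tagmented with Tn5 and amplified in 2 rounds of 9 PCR cycles with selection of fragments of 150 to 700 bp, per the labels' protocols. The authors deposited 1 table of raw counts in 117835 regions for 12 libraries, with peak calls per group in the region names. Per the submitters' processing notes, the genome build was mm10 and the tools were deepTools 3.5.1, Picard 2.12.0, SAMtools 1.10 and the aligner BWA 0.7.17-r1188. How peaks were called, duplicates treated and Tn5 insertions shifted is not given in the sources used here. Regions were called from these same libraries, which favours sites open in deeply sequenced groups: totals ran from 1162969 (LL-MDM 1) to 18938222 counts (MDM 2). All columns were used, and 0 had no sample.

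Counts in regions, and counts summed over regions in a gene's span or within 5 kb of it (a region near several genes counts for each), were tested in R 4.3.3 with edgeR 4.0.16 (TMM scaling, low-count filter, robust quasi-likelihood fit of the 4 groups, no covariate), with Benjamini-Hochberg adjustment over 77737 regions and 15548 genes. Log2 values in the text come from these fits and CPM values from the scaled counts. The scripts were tested on simulated data. Groups follow the library names, since titles name another group for 8 of 12 samples. Libraries were numbered in accession order, and the p-values measure only the spread between these samples, which may be technical. Intervals on ratios of counts are exact binomial ones and cover counting error only, since PCR reads are not independent molecules.

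The gene lists and the contrast were chosen with earlier results of these data known. Genes named are up to 12 per direction with the smallest p among called ones with an absolute log2 interaction of at least 1, up to 4 called members per list, and a fixed set of markers, with up to 10 regions per direction by the same rule, 1 per nearest gene. The other members of the class II and dendritic cell lists and the promoter regions were named after their values were seen. Alternatives were other scalings, filters, DESeq2 1.42.0, limma 3.58.1 (voom), each library left out, MG 2 and MG 3 left out, thinning, groups by title and other region sets. A difference of differences in CPM and a replicate block by sets of library names were added after seeing the data. Coordinates of genes and promoter sequences are from RefSeq on GRCm38.p6.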

Additional observations from a re-analysis of the deposited data

Results flagged for a closer look

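The lipid-load difference was not the same in both lineages at 8467 regions and 1356 genes by the edgeR interaction, the test of the difference itself. Among the loci and regions named above, those with called lipid-load differences in opposite directions are listed here with their interaction (log2). Higher in LL-MG than in MG and lower in LL-MDM than in MDM were the loci H2-Eb1 (2.29), Snph (2.28), Sdcbp2 (1.85), Slc23a4 (2.01), 1700025G04Rik (1.19), Haao (1.33), Bst2 (0.95), Irf4 (1.24), Ciita (1.38), H2-DMb1 (1.72), H2-DMb2 (1.31) and Cd86 (0.84). The regions of the same kind were those at Ccdc149 (3.27), Vav2 (2.43), Ston2 (2.44), 1700025G04Rik (2.29), Smndc1 (1.80) and Tent5c (2.90). Lower in LL-MG than in MG and higher in LL-MDM than in MDM were the loci Zfp704 (−1.13), Eaf1 (−1.11) and Fst (−2.74) and the region inside Pde4d (−3.55). MG 2 and MG 3 were the highest of the MG libraries at Zfp704, Eaf1, Fst and the Pde4d region, and the part of what sets these libraries apart was not tested.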

How the results depend on the processing

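The number of called regions was 8467 and fell to 5406 with a stricter filter (fewer regions tested), 4844 without MG 2 and MG 3, 3602 over regions called as peaks in all 4 groups (fewer regions tested), 1430 with all libraries thinned to the smallest total, and 0 with groups by title. The number of called genes was 1356 and fell to 958 without MG 2 and MG 3, 543 after thinning, 473 with an absolute log2 interaction of at least 1 required, and 0 with groups by title. Leaving out 1 library gave 3831 to 17816 regions and 713 to 3462 genes, with the highest numbers without MG 1. DESeq2 called 5789 regions and 1261 genes. Scaling by total counts gave a median interaction over regions of −0.02 beside −0.13. With groups by title the sign reversed at the Rasa3 region (0.19), Fst (0.0435), Trcg1 (0.0724), Ccl3 (0.19), Ccl4 (0.17) and Esam (−0.13), and, of loci without a call, at P2ry12 (−0.34), Ccr2 (0.62), Ms4a7 (−0.0118), Abcg1 (−0.0102) and Cd36 (−0.0235). Of loci without a call it also reversed without MG 2 and MG 3 at P2ry12 (−0.15), Ccr2 (0.31), Abcg1 (−0.0509) and Cd36 (−0.0375), after thinning at Cd36 (−0.0604) and over gene spans alone at Plin2 (0.045), which ran from −0.26 to 0.0323 with 1 library left out. On the CPM scale it reversed, among called results, at Nova1 (3.68), Sall1 (9.70), the Nova1 region (0.0425) and the Manba region (0.000787). The cause was not tested. Dendritic cell genes called positive numbered 2 to 6, leaving aside the groups by title (0). Depth limits the low loci most, since LL-MDM 1 holds 1162969 counts. The library names run in 3 sets of 4, which no label ties to a mouse or day. With these sets as a replicate block, chosen after seeing the data, 7595 regions and 1187 genes were called, of which 7183 and 1130 were also called without the block, with the same sign. The adjusted p was then 0.064 at Zbtb46, 0.063 at Dlg4, 0.065 at Tubb3, 0.062 at Esam and 0.063 at S100a8. Deviations from the group means correlated above 0.1 in 1 of 18 pairs of libraries of 1 set (median −0.0232) and in 5 of 36 pairs of different sets, and 2 of 12 libraries correlated best with their own set, so the sets were not treated as pairs.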
